A study of Mus musculus with 14 samples.

Results

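The quantity described here is the difference between 2 tumour effects: the log2 expression change that came with a tumour in old mice minus the same change in young mice. A value above 0 means that tumour-bearing minus cancer-free was the larger in old hosts, and a difference of 1 is a 2-fold difference between the changes. It was computed for all genes measured by a probe with exactly 1 gene symbol. There were 22180 such genes, of which 13805 were bright enough to test, meaning above the median of all array values (3.88) on at least 3 of the 14 arrays. The other 8375 genes were not tested. Where a gene had several probes, the one with the brightest mean was taken.

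The cells were bone marrow cells sorted for the surface protein Sca1 and against the receptor Kit (Sca1+cKit-), which left both blood-forming and other marrow cell types possible. All hosts were female NCR-NU mice, a nude strain that lacks a thymus and is used because it accepts tumour grafts. There were 4 groups: 3 young cancer-free, 3 young tumor-bearing, 5 old cancer-free and 3 old tumor-bearing mice, with 1 array for each mouse. Cancer-free hosts carried Matrigel, a basement membrane gel without tumour cells, and tumours were matched in size. The labels call the hosts only young or old, without an age in weeks, and the tumour line was not given in the sources used here. Young and old tumour effects share no array, so the difference carries the error of all 4 groups.

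Marrow cells can respond to a distant tumour because the tumour releases factors into the blood that reach the marrow. Myeloid cells, lymphocytes and stromal cells made there can then travel to the tumour. Aging shifts the marrow toward myeloid output, slows division of several progenitor types and changes inflammatory signalling, which gives reason to ask whether a host's age changes that response. In a bulk sample of sorted cells, fewer cells of a type and less RNA per cell cannot be told apart.

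Arrays were ranked by their mean correlation with the other arrays, and leaving out the 2 lowest was decided after the data were seen. Replicate 1 of the young tumor-bearing group had the lowest mean correlation with the other arrays (0.908), against 0.941 for the highest. Replicate 3 of the old tumor-bearing group came next at 0.9121, and replicate 2 of that group was level with it at 0.9122, so the choice between those 2 is arbitrary. On replicate 1 of the young tumor-bearing group, the mean over the genes of oxidative phosphorylation was 7.52, against 7.75 to 8.31 on the other 13 arrays. Below, the 2 least correlated arrays are replicate 1 of the young and replicate 3 of the old tumor-bearing group. For many differences that shrink by over 1.5 times without one or both of them, a value without them is given. The median value of an array lay between 3.81 and 3.93. Kit and Ptprc, the pan-leukocyte antigen CD45, were above the floor on all 14 arrays. Group means of Kit RNA were 5.50 to 6.62 although the cells were sorted against the Kit protein, and the reason was not tested. The Sca1 gene Ly6a was not analysed here, so the sort for Sca1 could not be checked on its own marker.

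No gene passed the test for a different tumour effect in old and young mice. Limma called 0 of 13805 genes at an adjusted p under 0.05 (0%), and the smallest adjusted p was 0.736. At an unadjusted p under 0.05 there were 610 genes (4.42%), fewer than the 690.2 that uniformly spread p-values would give. Of these, 355 had a difference above 0 (2.57% of genes tested) and 255 below 0 (1.85%), a split that was 325 above and 349 below after cyclic loess. The single tumour effects passed no gene either: 0 in young mice, with 745 genes (5.4%) at an unadjusted p under 0.05 and a smallest adjusted p of 0.494, and 0 in old mice, with 1348 genes (9.76%) and a smallest adjusted p of 0.0801. The genes named below are therefore the leading values of a comparison in which none passed, and every adjusted p for the difference was 0.736 or higher.

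The difference was measured less precisely than either tumour effect: the median standard error (SE) was 0.37 for the difference, 0.27 for the tumour effect in young and 0.25 in old mice, all in log2 units. Over all genes the median difference was 0.02, with 52.4% of genes above 0 and 47.6% below. The young and old tumour effects had a correlation of 0.19 across the 13805 genes, which are not independent replicates. The 2 effects had opposite signs in 5826 genes (42.2%). Error in both sets of estimates lowers such a correlation, so it does not show how closely the effects themselves were related.

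**Figure D1:**
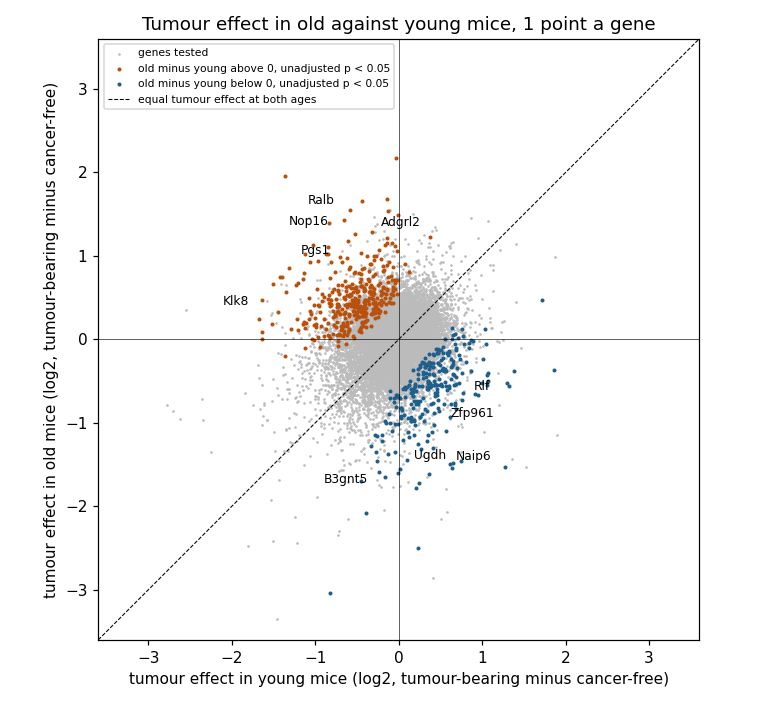
Tumour effect of each of 13805 tested genes in young mice (x axis) against old mice (y axis), both in log2 units as tumour-bearing minus cancer-free, with the dashed line marking equal effects. Orange points are the 355 genes with a difference above 0 and blue points the 255 below 0 at an unadjusted p under 0.05, and the orange points lie mostly in the upper left and the blue points mostly in the lower right.

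Most genes at an unadjusted p under 0.05 had tumour effects of opposite sign at the 2 ages. Of the 355 genes with a difference above 0, 345 had a negative tumour effect in young and a positive one in old mice, 3 were positive at both ages and 7 negative at both. Of the 255 genes below 0, 213 were positive in young and negative in old mice, 32 were negative at both ages and 10 positive at both. Selection on the difference itself favours this, so these counts are a description. Among the 255, the old tumor-bearing group had the lowest of the 4 means in 190 genes and the young tumor-bearing group the highest in 166. Among the 355, the young tumor-bearing group was lowest in 229 and the old tumor-bearing group highest in 203. The contrast limits which groups can be extreme, so nothing is read from these counts either.

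Genes whose tumour effect was more positive in old mice were led by Ralb, which encodes a Ras-like GTPase that acts in exocytosis. In young mice Ralb was at 6.75, 6.70 and 7.05 on the cancer-free and 6.64, 6.34 and 5.79 on the tumor-bearing arrays. In old mice it was at 6.15, 5.02, 6.20, 6.43 and 5.50 on the cancer-free and 7.25, 7.46 and 7.51 on the tumor-bearing arrays. All tumor-bearing arrays were thus below their controls in young mice and above them in old mice. The difference was 2.13 ± 0.44 (SE), with a 95% interval of 1.19 to 3.07, but 1.21 when the probes of the gene were averaged instead of the brightest being taken.

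Nop16, a nucleolar protein needed to assemble the large ribosomal subunit, followed with 2.08 ± 0.43. Its old tumor-bearing arrays were at 8.03, 7.84 and 7.18, all above the old cancer-free arrays at 6.16, 6.44, 5.66, 6.76 and 6.27. Among young mice Nop16 was at 6.43, 6.06 and 6.41 without and at 5.34, 5.30 and 6.30 with a tumour, so those groups overlapped. Klk8, a secreted serine protease, differed by 2.11 ± 0.44, and here the larger part lay in young mice. Young cancer-free arrays had Klk8 at 7.19, 7.71 and 6.87 and young tumor-bearing arrays at 5.03, 6.09 and 5.73, a tumour effect of -1.63 ± 0.33. Old mice had 6.08, 7.18, 7.0, 6.89 and 6.43 without and 7.14, 7.47 and 6.95 with a tumour, which overlapped.

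Urb2 and Znrd1 also act in making ribosomes, Urb2 in the nucleolus and Znrd1 as a subunit of RNA polymerase I. Urb2 was at 6.39, 6.37 and 6.67 in young cancer-free and 5.63, 5.88 and 5.75 in young tumor-bearing mice. The old groups had it at 5.39, 4.81, 5.78, 5.62 and 5.83 without and 6.0, 6.29 and 6.10 with a tumour, a difference of 1.37 ± 0.32. The groups did not overlap at either age and were ordered in opposite ways. For Znrd1 the difference was 1.43 ± 0.35. Pgs1, which makes the precursor of the mitochondrial lipid cardiolipin, was at 5.65, 5.19 and 5.46 against 5.03, 4.63 and 4.53 in young mice. In old mice Pgs1 was at 4.33, 5.14, 4.57, 5.13 and 4.07 against 5.88, 5.70 and 5.31, and it differed by 1.69 ± 0.39. Top1mt, the topoisomerase of the mitochondrial genome, had a difference of 1.27 ± 0.32, from -0.47 in young to 0.79 in old mice.

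The remaining leading genes of this direction had varied roles. Adgrl2, an adhesion receptor coupled to G proteins, was at 5.29, 6.09 and 6.27 on old tumor-bearing arrays and between 4.41 and 5.12 on old cancer-free arrays. Its difference was 1.61 ± 0.35. Gtf2h5, the smallest subunit of the transcription and DNA repair factor TFIIH, differed by 1.38 ± 0.33, and Wdr11 by 1.28 ± 0.30. Kbtbd2, an adaptor of a ubiquitin ligase, had the whole of its difference of 0.85 ± 0.21 in young mice, where it was at 5.34, 5.59 and 5.60 without and 4.63, 4.51 and 4.56 with a tumour. Old mice showed a tumour effect of -0.09 ± 0.14 for Kbtbd2. Col10a1, a collagen of growth plate cartilage, differed by 1.57 ± 0.36 but had a group mean under the floor, so that value is not an exact size.

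**Figure D2:**
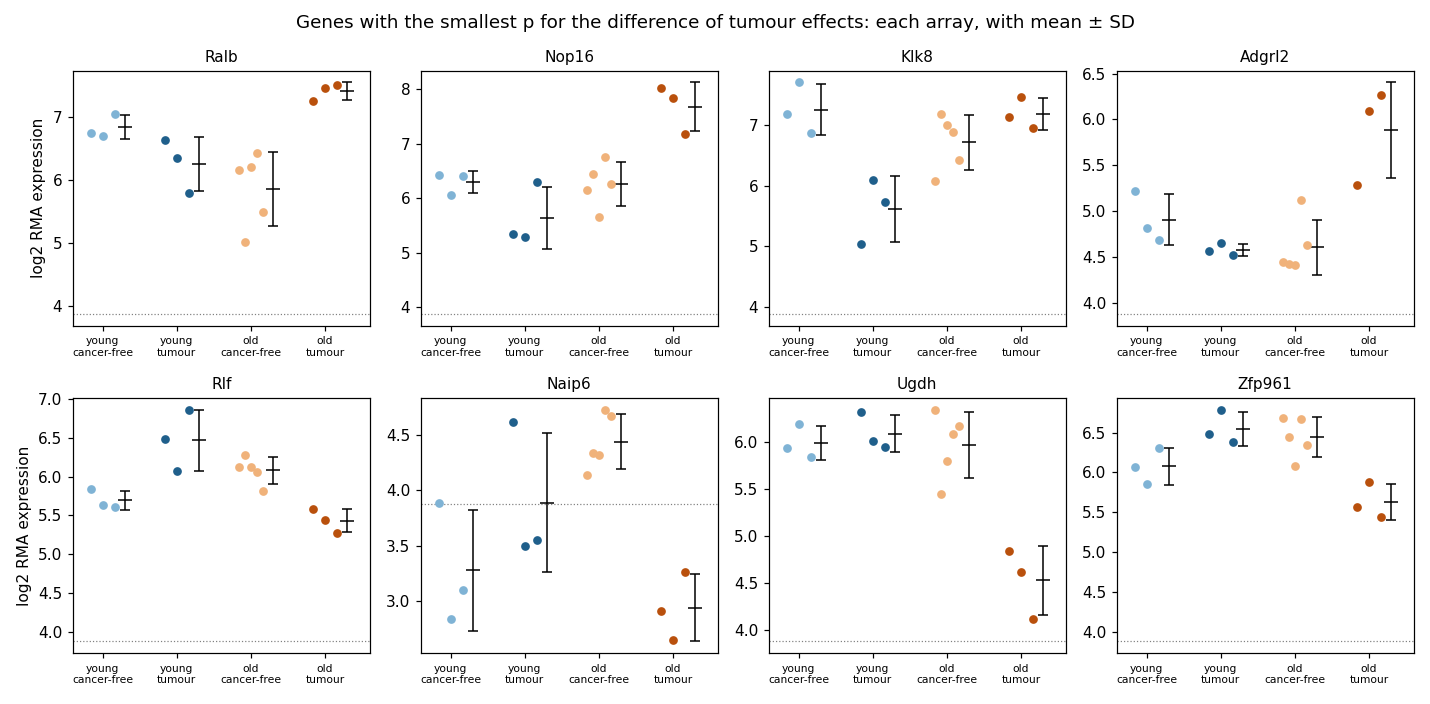
log2 RMA expression of the 4 named genes with the smallest p for a difference above 0 (upper row) and below 0 (lower row) on each of the 14 arrays, by group, with group mean ± SD beside the points. The dotted line is the floor of 3.88, and Ralb shows tumor-bearing arrays below the controls in young and above them in old mice, while Rlf shows the opposite order.

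In the other direction, Rlf had the smallest p of all genes tested (unadjusted p = 0.000172 in limma). It encodes a large zinc finger protein that acts in transcription. Rlf was at 5.84, 5.64 and 5.61 in young cancer-free and 6.48, 6.07 and 6.86 in young tumor-bearing mice. Old cancer-free mice had 6.13, 6.28, 6.13, 6.06 and 5.81 and old tumor-bearing mice 5.58, 5.44 and 5.28. The order of the groups was reversed between the ages without overlap, and the difference was -1.42 ± 0.28, with a 95% interval of -2.02 to -0.82.

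Several genes of this direction differed from their controls mainly in old mice. Ugdh, the enzyme that makes UDP-glucuronate for proteoglycans and hyaluronan, was at 4.84, 4.62 and 4.12 on the old tumor-bearing arrays and at 5.45 to 6.35 on all 11 others. Its difference was -1.55 ± 0.34 and its tumour effect in young mice 0.10 ± 0.25. B3gnt5, which starts the lacto-series of glycolipids, was at 4.19, 4.62 and 4.19 in old tumor-bearing and 6.19, 6.28, 5.73, 6.34 and 5.35 in old cancer-free mice, with a difference of -1.48 ± 0.35. Pbx2, a homeodomain partner of Hox proteins in blood progenitors, had a tumour effect of -1.55 ± 0.28 in old and 0.01 ± 0.32 in young mice. Txndc12, a thioredoxin of the endoplasmic reticulum, differed by -2.13 ± 0.52, its old tumor-bearing arrays being at 5.51, 4.12 and 4.17. Sec14l1 differed by -1.09 ± 0.29. In each of these genes the old tumor-bearing arrays were all below the old cancer-free arrays.

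Zfp961, Trappc12, Brca2 and Fam193a had both parts of the pattern. Zfp961, a zinc finger protein, was above its controls in young mice (6.48, 6.79 and 6.38 against 6.07, 5.85 and 6.31) and below them in old mice. Its difference was -1.29 ± 0.28. Trappc12, a subunit of a vesicle tethering complex, differed by -1.20 ± 0.30, and Fam193a by -0.86 ± 0.24. Brca2, which loads the recombinase at broken DNA, was at 3.67, 3.46 and 3.23 in old tumor-bearing mice and differed by -1.08 ± 0.30. That old tumor-bearing mean is under the floor, as are group means of Naip6 (-2.11 ± 0.44), a sensor of bacterial proteins, and Gal3st2b (-1.16 ± 0.32), a sulfotransferase, so these 3 values are not exact sizes.

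Complete reversal of the array order was rare. In young mice the tumor-bearing arrays were all above the controls in 768 genes (5.56%) and all below them in 1017 (7.37%), and in old mice, with 5 controls, in 430 (3.11%) and 419 (3.04%). In 21 of 13805 genes (0.152%) the tumor-bearing arrays lay entirely on one side of the controls in young mice and entirely on the other side in old mice. There were 11 genes lower with a tumour in young and higher in old mice (0.0797%) and 10 of the reverse order (0.0724%). By the smaller of their 2 tumour effects, Pgs1, Commd6, Rlf, Urb2, Snhg15 and Ralb led this group. Commd6, a small protein of the COMMD family that acts in endosomal sorting, was at 6.87, 6.87 and 7.79 against 4.98, 6.66 and 6.26 in young mice. Old mice had Commd6 at 6.11, 6.59, 6.67, 7.01 and 6.51 against 7.18, 7.45 and 7.12, a difference of 1.88 ± 0.51. Snhg15, a long noncoding RNA that hosts a small nucleolar RNA, had a tumour effect of 0.62 in young and -0.78 in old mice.

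Order in the same direction at both ages was seen in 100 genes (0.724%), of which 35 were higher with a tumour (0.254%) and 65 lower (0.471%). Lgmn, the lysosomal protease legumain, had nearly equal effects of 0.93 ± 0.24 in young and 0.93 ± 0.22 in old mice. It was at 6.48, 5.90 and 6.21 against 7.47, 6.98 and 6.92 in young mice, and at 6.03, 6.18, 6.06, 5.70 and 5.94 against 6.44, 7.29 and 7.0 in old mice. The 95% interval of its difference, -0.70 to 0.71, leaves room for unequal effects of that size. Lower at both ages were Eef1e1, an auxiliary protein of the tRNA synthetase complex (-1.48 young, -1.34 old), and Lpcat1, a phospholipid acyltransferase (-1.27 young, -1.24 old). Rps6ka5, a kinase that phosphorylates histone H3, had -1.07 and -0.98, with an old tumor-bearing mean under the floor that makes the latter no exact size, and Mrpl9 of the mitochondrial ribosome -1.02 and -1.18. Zhx2, a transcriptional repressor, had -0.93 and -1.04.

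Gene lists were next described by the median difference over their tested members and by how many members lay above or below 0. The median of a list's differences need not equal the difference of its 2 median tumour effects. Of 36 lists with at least 5 tested members, 20 had a median above 0 and 16 below. Over all genes tested, 52.4% of differences were above 0 and 47.6% below, the shares to set beside each count by list. Tumour effects were below 0 in 52.8% of genes in young and 48.7% in old mice. The markers of basophils, mast cells and eosinophils had 3 tested members and were not used.

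**Figure D3:**
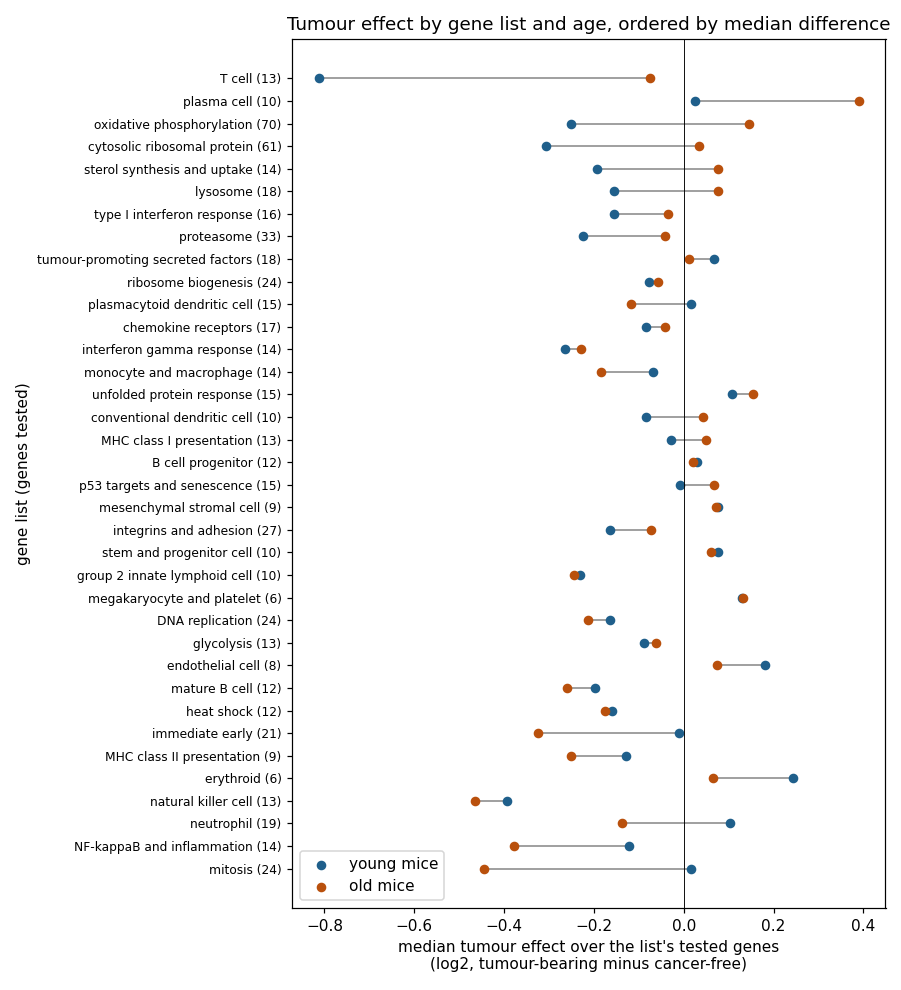
Median tumour effect (log2, tumour-bearing minus cancer-free) over the tested genes of each of 36 lists in young (blue) and old (orange) mice, ordered by the median difference between ages, with the number of genes tested in brackets. The T cell markers show a young median of -0.81 and an old median of -0.07 at the top, and the mitosis genes 0.02 and -0.44 at the bottom.

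Genes of mitosis, which build the spindle and separate chromosomes, had the lowest median difference of the lists, -0.49. Of 24 tested members, 21 had a difference below 0 (47.6% of all genes did) and 2 reached an unadjusted p under 0.05 in that direction (1.85% of all genes). In old mice 23 of 24 members had a negative tumour effect, against 48.7% of all genes, while young mice had 12 of 24 on each side. None passed the adjustment, so the list is described by its direction only. The list mean was 6.55, 6.21 and 6.59 on young cancer-free and 6.31, 6.46 and 6.64 on young tumor-bearing arrays. Old cancer-free arrays had 5.74, 5.75, 6.08, 4.81 and 5.16 and old tumor-bearing arrays 4.67, 4.86 and 5.43. The young groups overlapped closely, the old groups overlapped more widely, and all old arrays were below all young arrays. Without the 2 least correlated arrays the median was -0.73 with 24 of 24 members below 0.

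Among the members, Ndc80 and Nuf2 are partners in the kinetochore complex that holds spindle microtubules. Ndc80 was at 6.63, 6.17 and 7.07 in young cancer-free, 7.52, 6.75 and 6.33 in young tumor-bearing, 4.99, 7.40, 6.43, 4.29 and 5.28 in old cancer-free and 3.61, 4.66 and 3.6 in old tumor-bearing mice. Its difference was -1.96 ± 0.85, and the old groups overlapped at one array. The old tumor-bearing values of 3.61 and 3.6 were under the floor, so that difference is not an exact size. Nuf2 differed by -1.15 ± 0.54, or -0.74 without replicate 2 of the old tumor-bearing group. Ccna2, the cyclin of S phase and G2, differed by -1.32 ± 0.69 and Kif23, a motor protein of the dividing cell's midzone, by -0.99 ± 0.49. Mki67, the proliferation antigen Ki-67, was at 8.56, 7.87 and 8.44 without and 9.08, 8.77 and 8.84 with a tumour in young mice. In old mice Mki67 was at 7.32, 7.26, 8.05, 6.04 and 7.29 without and 6.10, 7.35 and 7.34 with a tumour. Its difference of -0.87 ± 0.58 was the sum of a larger part in young mice, where the groups did not overlap, and a smaller one in old mice, where they did, and it was -0.45 without replicate 1 of the old tumor-bearing group. Ect2, Plk1 and Cdk1 were the 3 members above 0, at 0.27, 0.19 and 0.09.

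Many promoters of mitosis genes hold a CCAAT box, bound by the factor NF-Y, and a CHR element, bound by complexes that hold these genes silent until the late cell cycle. The windows of 250 bases before the start site are shown for Mki67 and Kif11, a spindle motor (difference -0.95 ± 0.78), because both hold both motifs. They are taken from RefSeq on GRCm38.p6, at chr7:135716380-135716629 (minus strand) and chr19:37376132-37376381 (plus strand). Capitals mark CCAAT and TTTGAA on either strand.
Mki67: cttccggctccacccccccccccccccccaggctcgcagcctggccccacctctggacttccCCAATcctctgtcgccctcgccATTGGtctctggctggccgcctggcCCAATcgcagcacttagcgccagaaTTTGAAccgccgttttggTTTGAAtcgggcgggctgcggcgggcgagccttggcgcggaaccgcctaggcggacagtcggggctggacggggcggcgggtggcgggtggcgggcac
Kif11: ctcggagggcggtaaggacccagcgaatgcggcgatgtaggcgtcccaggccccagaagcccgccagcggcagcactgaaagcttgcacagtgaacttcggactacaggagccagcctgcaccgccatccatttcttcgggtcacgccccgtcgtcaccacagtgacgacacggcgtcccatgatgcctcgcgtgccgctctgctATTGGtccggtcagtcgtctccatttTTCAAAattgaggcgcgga
Of the 24 tested mitosis genes 20 matched, with 22 windows, and CCAAT was in 18 of them (81.8%), against 11120 of 32851 windows of all genes (33.8%). TTTGAA was in 9 of 22 (40.9%), against 16% of all windows. These 2 motifs do not overlap each other, and a match describes the letters only.

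DNA replication genes, which act earlier in the same cycle, did not share this direction of the difference. In old mice 19 of 24 members had a negative tumour effect (48.7% of all genes). In young mice 16 of 24 had one too (52.8% of all genes). Their median difference was -0.04 with 12 of 24 members above 0, although 2 were at an unadjusted p under 0.05 below 0 (1.85% of all genes). These were Pola1, the catalytic subunit of DNA polymerase alpha (-0.76 ± 0.30), and Hells, a chromatin remodeller (-0.85 ± 0.38). Tyms, which makes thymidylate, lay on the other side at 0.78 ± 0.51. Without the 2 least correlated arrays the median was -0.20, with 18 of 24 members below 0. Markers of myeloid and erythroid cells are given beside the mitosis genes. The neutrophil list had a median of -0.25 with 12 of 19 members below 0, led by the chemokine receptor Cxcr2 (-1.40 ± 0.69) and the granule proteins Lcn2 (-1.37 ± 0.72) and Mmp8 (-1.75 ± 0.97). That median was 0.08 without the 2 least correlated arrays, and with 1 array left out it ran from -0.43 (without old cancer-free replicate 5) to -0.018 (without old cancer-free replicate 1). In the erythroid list 6 members were tested, 5 of them below 0 (47.6% of all genes), led by Tfrc, the transferrin receptor (-1.72 ± 0.62). The 1 member above 0 was at 1.26. The part of these myeloid and erythroid markers in the mitosis values was not tested.

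Genes of oxidative phosphorylation, the respiratory chain and ATP synthase of mitochondria, leaned the other way as a group. The median difference was 0.34, with 63 of 70 members above 0 (52.4% of all genes) and 3 at an unadjusted p under 0.05 in that direction (2.57% of all genes). Median tumour effects were -0.25 in young and 0.15 in old mice. On young arrays the list mean was 8.31, 8.31 and 8.195 without a tumour and 7.52, 8.24 and 8.27 with one. Old arrays had 8.17, 8.12, 8.13, 7.75 and 7.75 without and 8.04, 8.13 and 8.18 with a tumour. A single young tumor-bearing array, the least correlated one, was far below the others, and the groups overlapped at both ages. Without it the median was 0.16 with 53 of 70 above 0, and without the 2 least correlated arrays 0.10 with 43 of 70 above 0.

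The 3 members with the smallest p were all subunits of complex I. Ndufa11 was at 9.49, 9.50 and 9.69 in young cancer-free and 9.05, 9.13 and 9.37 in young tumor-bearing mice. In old mice Ndufa11 was at 8.39, 9.29, 8.95, 8.68 and 8.48 without and 9.33, 9.96 and 9.16 with a tumour, a difference of 1.10 ± 0.34. Its young groups did not overlap and its old groups overlapped at 1 array. Ndufs3 differed by 0.88 ± 0.29, with old tumor-bearing arrays at 6.01, 5.89 and 5.72 above all old controls at 5.11 to 5.58. Ndufa7 differed by 1.11 ± 0.51, where the least correlated array was at 6.08 and all others at 6.65 or above, and by 0.64 without that array. The 7 members below 0 included Cox6b2, at -0.54, the lowest of the list.

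Nuclear genes of the respiratory chain are known targets of NRF1, whose site is a palindrome. The windows of Ndufa11 and of Atp5g2, a subunit of the ATP synthase ring (difference 0.31 ± 0.23), are shown because they hold that site. They are from RefSeq on GRCm38.p6, at chr17:56717512-56717761 (plus strand) and chr15:102671048-102671297 (minus strand). Capitals mark GCGCATGCGC, which reads the same on both strands.
Ndufa11: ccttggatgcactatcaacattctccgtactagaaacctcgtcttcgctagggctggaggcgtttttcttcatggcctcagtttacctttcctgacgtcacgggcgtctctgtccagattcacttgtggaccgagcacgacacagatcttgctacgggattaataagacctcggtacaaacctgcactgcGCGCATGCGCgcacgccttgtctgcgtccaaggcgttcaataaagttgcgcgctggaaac
Atp5g2: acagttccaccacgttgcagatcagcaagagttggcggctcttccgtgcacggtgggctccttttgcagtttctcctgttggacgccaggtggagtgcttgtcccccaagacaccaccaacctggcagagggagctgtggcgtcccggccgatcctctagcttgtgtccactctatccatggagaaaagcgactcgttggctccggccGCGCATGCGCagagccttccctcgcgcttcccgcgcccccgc
Of the 70 tested genes 60 matched, with 65 windows, and this exact site was in 4 of them (6.15%), against 257 of all 32851 windows (0.782%). No window of the mitosis genes held it, but with 22 windows and a site this rare that absence says little.

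Cytosolic ribosomal protein genes gave a similar picture to the respiratory chain. Their median difference was 0.30, with 51 of 61 members above 0 (52.4% of all genes) and 4 at an unadjusted p under 0.05 in that direction (2.57% of all genes). Young mice had a median tumour effect of -0.31, with 53 of 61 members below 0 (52.8% of all genes), and old mice one of 0.03. The list mean was 8.87, 8.93 and 8.81 without and 8.135, 8.78 and 8.69 with a tumour in young mice, so the groups did not overlap there. In old mice it was at 8.80, 8.96, 8.85, 8.68 and 8.51 without and 8.84, 8.71 and 8.77 with a tumour. Without the least correlated array the median was 0.16, with 47 of 61 above 0.

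Rpl34 had the largest difference of any gene tested, 3.32 ± 0.997. It was at 7.14, 7.12 and 5.76 against 4.06, 6.75 and 5.11 in young mice, and at 5.56, 6.88, 7.04, 5.64 and 4.14 against 7.50, 7.46 and 8.46 in old mice. The old groups did not overlap, but the spread within groups was wide. Rpl27a (1.29 ± 0.52, or 0.56 without the 2 least correlated arrays), Rpl39 (0.92 ± 0.37) and Rpl37 (0.54 ± 0.22) were the others at an unadjusted p under 0.05, while Rpl3 was at -1.54. Ribosomal protein genes have many processed pseudogenes, so a probe may read more than its gene. For ribosome biogenesis the median was 0.10 with 15 of 24 above 0 (52.4% of all genes). Its 2 members at an unadjusted p under 0.05, both above 0, were Nop16 and Utp20 (0.71 ± 0.32), of the small subunit processome. Of all genes, 2.57% were at that p and above 0. The proteasome list had 22 of 33 members above 0, against 52.4% of all genes. Its median was 0.13, and -0.04 without the least correlated array. The leading proteasome members were the catalytic subunit Psmb5 (0.74 ± 0.31) and Psmb1 (0.96 ± 0.42), the 2 at an unadjusted p under 0.05. They were at 0.41 and 0.40 without the 2 least correlated arrays.

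**Figure D4:**
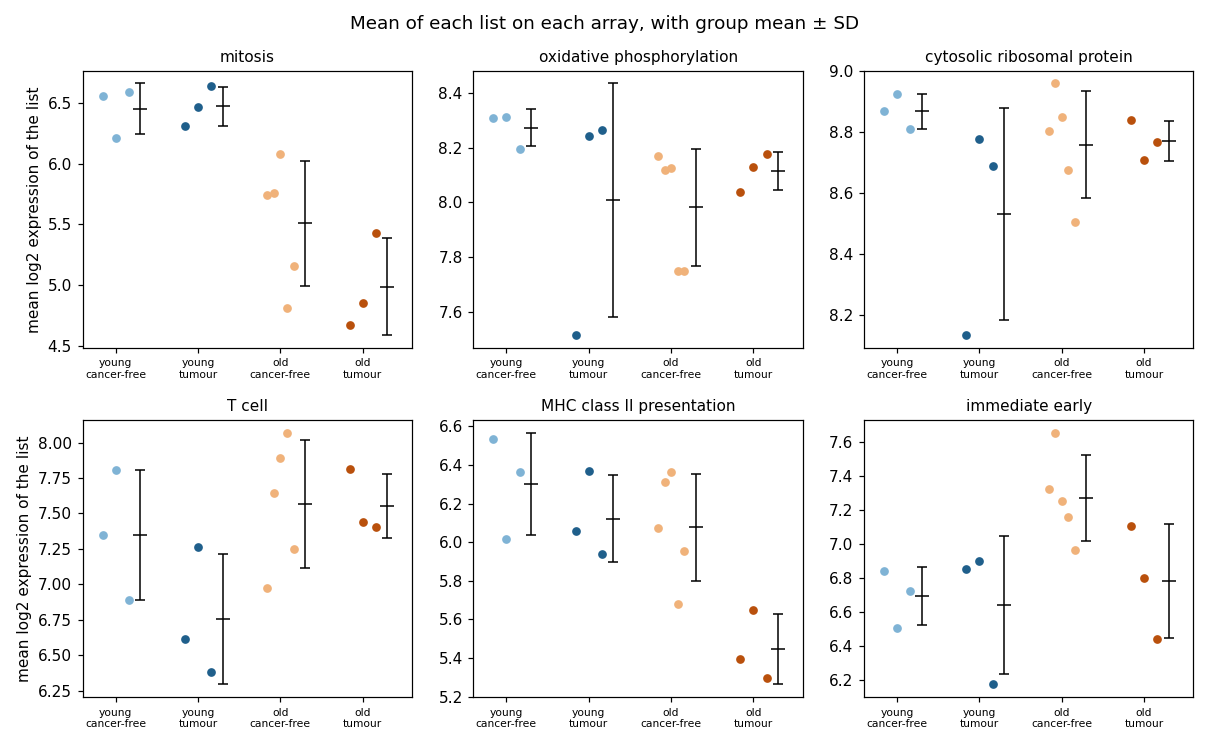
Mean log2 expression of 6 gene lists on each of the 14 arrays by group, with group mean ± SD. All old arrays lie below all young arrays for mitosis, and 1 young tumor-bearing array lies far below the others for oxidative phosphorylation (7.52) and ribosomal proteins (8.135).

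Markers of T cells had the highest median difference of all lists, 0.80. A nude mouse makes few T cells because it lacks a thymus, but some develop elsewhere, and these genes are also read in part by natural killer and progenitor cells. Of 13 tested members 11 had a difference above 0 (52.4% of all genes) and 2 were at an unadjusted p under 0.05 in that direction (2.57% of all genes). Young mice had a median tumour effect of -0.81, with 11 of 13 members below 0, and old mice one of -0.07, with 8 below 0. The list mean was 7.35, 7.81 and 6.89 without and 6.61, 7.26 and 6.38 with a tumour in young mice, and 6.98, 7.64, 7.89, 8.07 and 7.25 without and 7.81, 7.44 and 7.40 with a tumour in old mice. These groups overlapped at both ages. Leaving out 1 array at a time gave medians from 0.45 to 1.05, the lowest without replicate 3 of the young tumor-bearing group.

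By p-value, Cd8a, a chain of the CD8 co-receptor, and Cd5 led the T cell members. Cd8a was at 7.65, 8.61 and 6.45 against 6.78, 6.66 and 6.37 in young mice and at 6.37, 8.06, 8.83, 8.22 and 6.83 against 8.76, 8.71 and 8.33 in old mice, a difference of 1.90 ± 0.79. Its partner Cd8b1 differed by 1.46 ± 0.80. Cd8a controls spread over more than 2 log2 units at both ages, so the groups overlapped. Cd5, a surface receptor that dampens antigen signals, differed by 1.74 ± 0.79, or 1.14 without replicate 3 of the young tumor-bearing group. Cd3d, of the antigen receptor complex, was at 9.16, 9.81 and 9.29 against 6.07, 9.09 and 8.04 in young mice, where the least correlated array was the lowest. Its difference was 1.38 ± 0.76, or 0.55 without that array. Cd3e, of the same complex, differed by 0.80 ± 0.50, or 0.50 without replicate 3 of the young tumor-bearing group. Trat1, an adaptor of the same receptor, went the other way at -2.09 ± 1.04, with 1 old cancer-free array at 7.44 and the others of that group at 3.96 to 5.69. Its old tumor-bearing mean was under the floor, so that value is not an exact size. Cd4 differed by 0.08 ± 0.53.

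Plasma cell markers had a median difference of 0.35, with 8 of 10 members above 0. In old mice all 10 had a positive tumour effect, against 51.3% of all genes. The list mean was 9.75, 9.79 and 9.51 on old tumor-bearing arrays and 9.49, 9.37, 9.16, 8.93 and 9.33 on old cancer-free arrays, which did not overlap. In young mice it was 9.63, 9.50 and 9.25 without and 9.43, 9.71 and 9.33 with a tumour, with overlap. The median difference was 0.17 without replicate 3 of the young tumor-bearing group and 0.49 without the 2 least correlated arrays. Tnfrsf13b, the receptor TACI that binds B cell survival factors, led the list at 1.24 ± 0.32. It was at 7.56, 7.68 and 7.25 in old tumor-bearing mice, above all old controls at 6.14 to 6.84, while the young groups overlapped. Mzb1, a chaperone of secreted antibody, differed by 0.88 ± 0.56, or 0.49 without the least correlated array. The B cell progenitor list had a median of 0.02 and the mature B cell list one of -0.15 with 8 of 12 below 0. The part of B cell markers in the plasma cell values was not tested.

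Genes of antigen presentation by MHC class II had a median of -0.17, with 7 of 9 members below 0 (47.6% of all genes) and 2 at an unadjusted p under 0.05 in that direction (1.85% of all genes). Over the 6 members that passed a stricter filter on brightness the median was -0.74. In old mice all 9 tumour effects were negative. The list mean was 5.40, 5.65 and 5.30 on old tumor-bearing arrays, below all old cancer-free arrays at 5.68 to 6.36, and the young groups overlapped. H2-Eb2, a beta chain gene, was at 7.02, 6.25 and 7.04 against 7.84, 6.84 and 6.23 in young mice and at 6.71, 6.52, 6.18, 6.12 and 6.98 against 5.35, 5.49 and 5.57 in old mice. The difference was -1.23 ± 0.48, and only the old groups were apart. H2-Oa, a subunit of the H2-O protein that restrains peptide loading, differed by -1.19 ± 0.47, with old tumor-bearing arrays at 5.22, 5.71 and 4.15 and old controls at 6.08 to 6.95. H2-DMb2, of the peptide loading protein, had -0.89 ± 0.76 and H2-Aa -0.60 ± 0.59. Each of these 4 genes depended on single arrays: H2-Oa was at -0.755 and H2-Aa at -0.14 without replicate 3 of the old tumor-bearing group, H2-Eb2 at -0.79 without replicate 1 of the young tumor-bearing group, and H2-DMb2 at -0.42 without replicate 2 of the young cancer-free group. H2-Ab1 was at 0.00 ± 0.35, and the class II transactivator Ciita at -0.17 ± 0.30. Genes of MHC class I presentation had a median of 0.02, with 7 of 13 above 0.

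Immediate early genes, transcription factors and phosphatases switched on within minutes of a stimulus, had a median of -0.16. Of 21 members 19 were below 0 (47.6% of all genes) and none was at an unadjusted p under 0.05 (4.42% of all genes). In old mice 20 of 21 had a negative tumour effect, against 48.7% of all genes. Fosb was at 7.21, 4.63 and 6.18 against 6.33, 7.04 and 6.0 in young mice and at 9.08, 9.36, 9.10, 7.45 and 8.28 against 8.06, 7.53 and 6.49 in old mice. Its difference was -1.74 ± 0.84, and the groups overlapped at both ages. Differences were -1.23 ± 0.85 for Fos, -1.08 ± 0.68 for Egr1 and -1.02 ± 0.66 for Jun. Without replicate 2 of the young cancer-free group Fosb was at -1.06, Fos at -0.70 and Jun at -0.54, and without replicate 1 of the young tumor-bearing group Egr1 was at -0.58. Without the 2 least correlated arrays Fos was at -0.76, Egr1 at -0.56 and Jun at -0.55. The old controls were the highest group for each of these 4 genes. The list mean of old tumor-bearing replicate 3, one of the 2 least correlated arrays, was 6.44, the lowest of its group. Without those 2 arrays the median was -0.07 with 13 of 21 below 0.

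NF-kappaB and inflammation genes had a median of -0.44, with 10 of 14 below 0 (47.6% of all genes) and 1 at an unadjusted p under 0.05 in that direction (1.85% of all genes). That gene was Nfkbia, the inhibitor that NF-kappaB itself induces, at 8.95, 8.74 and 8.50 against 9.60, 9.34 and 9.07 in young mice and 8.91, 8.75, 8.90, 8.92 and 9.21 against 9.04, 8.86 and 8.49 in old mice. Its young groups did not overlap, its old groups did, and the difference was -0.75 ± 0.28, or -0.46 without the 2 least correlated arrays. Icam1, an adhesion ligand, differed by -0.87 ± 0.42, or -0.57 without replicate 2 of the young tumor-bearing group, and Tnfaip3, a feedback inhibitor, by -0.78 ± 0.57. Tnf was at -0.51 ± 0.48 and the chemokine Ccl3 at -0.93 ± 0.95. Cxcl1 lay on the other side at 0.53 ± 0.32. The list mean of old tumor-bearing replicate 3 was 5.64, below 6.14 and 6.18 on the other arrays of the group. Without the 2 least correlated arrays the median was -0.35, with 8 of 14 below 0.

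**Figure D5:**
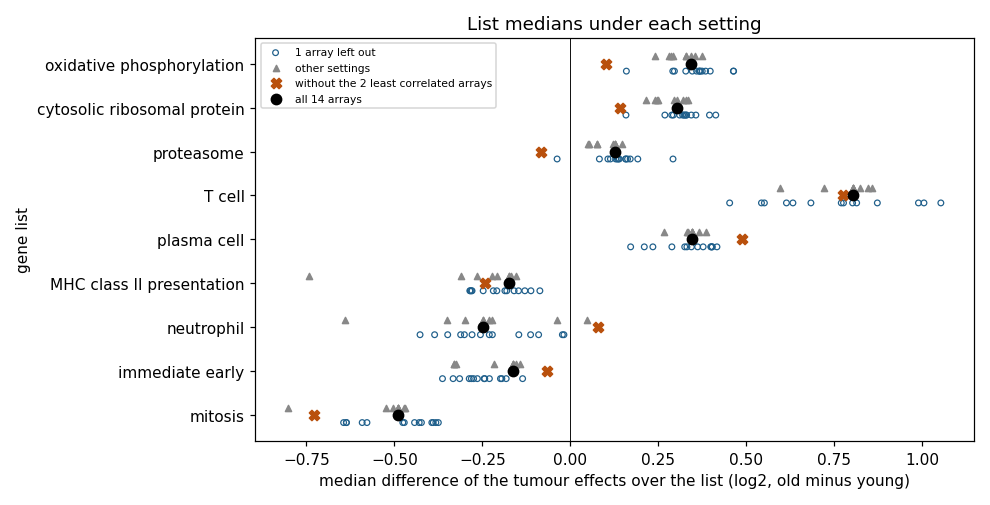
Median difference of the tumour effects (log2, old minus young) for 9 gene lists with all 14 arrays (black), with 1 array left out (open circles), under other settings (triangles) and without the 2 least correlated arrays (orange crosses). The oxidative phosphorylation median falls from 0.34 to 0.10 and the proteasome median from 0.13 to -0.08 without those 2 arrays, while the mitosis median stays below 0 at every setting shown.

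Natural killer cell markers had negative median tumour effects of -0.39 in young and -0.47 in old mice. At each age 12 of 13 members were below 0, against 52.8% of all genes in young and 48.7% in old mice. The median difference was -0.21, with 9 of 13 markers below 0 (47.6% of all genes) and none at an unadjusted p under 0.05. Their list mean was 8.43, 8.70 and 8.80 against 7.88, 8.37 and 8.44 in young mice, and 8.15, 8.05, 8.54, 8.49 and 8.33 against 7.92, 7.61 and 7.78 in old mice. Monocyte and macrophage markers had a median of 0.05, with Klf4, a transcription factor, at -1.30 ± 0.59. Among group 2 innate lymphoid cell markers the median was -0.02, and Il2ra, the alpha chain of the interleukin 2 receptor, differed by -1.08 ± 0.40. Il2ra was at 5.96, 6.61 and 5.83 in old tumor-bearing mice and between 6.83 and 7.96 on all 11 other arrays. Dpp4, a surface peptidase of the conventional dendritic cell list, differed by 1.16 ± 0.49, and the whole list had a median of 0.03. Endothelial, megakaryocyte, stem and progenitor and mesenchymal stromal markers had medians of -0.12, -0.04, -0.02 and 0.02.

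Among response and metabolic lists, the lysosome list was at 0.21, with 14 of 18 above 0, led by the cathepsin Ctsb (0.56 ± 0.27). That list median was 0.11 without replicate 3 of the old tumor-bearing group. Sterol synthesis was at 0.28 with 9 of 14 above 0, in spite of members as far apart as Cyp51 (1.22 ± 0.63) and Fdft1 (-1.22 ± 0.62). The type I interferon list was at 0.16 with 12 of 16 above 0 and the interferon gamma list at 0.07. Glycolysis was at -0.07, with Tpi1, triosephosphate isomerase, at 0.90 ± 0.25. The unfolded protein response list was at 0.04, where the transcription factor Atf4 differed by -0.55 ± 0.26, and heat shock was at -0.16. For p53 targets and senescence the median was 0.02, for chemokine receptors 0.08 and for integrins and adhesion 0.00, with Itga2, a collagen receptor chain, at -1.36 ± 0.54. The tumour-promoting secreted factors were at 0.11, and the cytokine Il10 among them was at -1.56 ± 0.83. For plasmacytoid dendritic cell markers the median was 0.10.

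Grn, which encodes progranulin, a secreted growth factor precursor, had a tumour effect of 0.32 ± 0.24 in young and 0.67 ± 0.22 in old mice. It was at 10.52, 10.55 and 10.85 against 11.47, 10.58 and 10.81 in young mice, and at 10.19, 10.37, 9.71, 9.76 and 10.03 against 10.64, 10.83 and 10.57 in old mice. Tumor-bearing arrays were all above their controls in old mice and overlapped with them in young mice. The difference between the ages was 0.35 ± 0.33, with a 95% interval of -0.35 to 1.05, so a larger effect in old mice was not shown, and the difference was 0.16 without replicate 2 of the young tumor-bearing group and 0.66 without the 2 least correlated arrays. Kit differed by -0.24 ± 0.41, or -0.11 without the 2 least correlated arrays and 0.077 without replicate 2 of the young cancer-free group. Ptprc differed by -0.34 ± 0.26.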

How the data were processed

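Sca1+cKit- bone marrow cells of 14 mice in 4 groups were profiled on 1-colour arrays, 1 array a mouse, after amplification of very small amounts of total RNA. The authors deposited log2 values, which came from RMA as run by oligo 1.32.0 in R 3.2.0 according to the submitters' processing notes. RMA sets arrays to a common distribution, so a shift shared by most genes would not be seen, and the sources used here do not say which arrays were normalised together. Arrays give no read depth, so their number limits the precision. The labels call the samples biological replicates and name no batch. The array build is not given, so only promoter windows carry positions, from RefSeq (GRCm38.p6).

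Of 41345 probes, 23521 had 1 gene symbol, 1814 several and 16010 none. Genes above the table median on 3 arrays were tested. Each gene was fitted by 4 means, 1 a group, with limma 3.58.1 in R 4.3.3 (lmFit, eBayes, residual degrees of freedom 10, prior 3.86), two-sided, with Benjamini-Hochberg adjustment over all 13805 genes at 0.05. P-values compare each contrast with its standard error, which rests on the spread between mice within groups. The code was tested on simulated data. Same-numbered mice of different groups showed little shared deviation: 18 pair correlations ran from -0.08 to 0.09, and 0 exceeded 0.1.

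Named genes were the 12 with the smallest p in each direction, up to 6 with reversed and 6 with the same array order at both ages, up to 4 members of lists with at least 2 members at an unadjusted p under 0.05 and 2 times the share of all genes, and Kit, Ptprc and Grn. Predicted genes, olfactory receptors and small RNA genes were not named. Other genes were named after their values were seen. Members and lists were chosen with earlier results of these data known. Alternatives were other filters, normalisations, variance models, probe rules, a replicate block and leaving out each array. Omitting the 2 least correlated arrays, correlation as a covariate and the use of all probes were chosen after seeing the data.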

Additional observations from a re-analysis of the deposited data

Results flagged for a closer look

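In 5 cases 1 of the 5 old cancer-free arrays lay far from the other 4, a gap that chance gives in about 1 in 20 groups examined. With 77 named genes and 36 lists in this report, several such gaps would come by chance, so nothing is read from these cases. Tnfrsf13b was at 6.14 on replicate 3, below 6.64 to 6.84 on the others. Tpi1 was at 7.41 on replicate 5, above 6.94 to 7.01. The mean of the erythroid list was 5.12 on replicate 1, where the others had 4.52 to 4.63. On the same replicate the lysosome list mean was 7.78, against 7.42 to 7.52. The heat shock list mean was 7.71 on replicate 2, against 7.13 to 7.28.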

How the results depend on the processing

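Limma called 0 genes for the difference under all 25 alternatives run. Of 77 named genes 70 kept their sign under every alternative. Most of them were named for their difference on these same arrays, which favours a kept sign, so nothing is read from that count. The count at an unadjusted p under 0.05 (610) was 1011 with no filter, 330 with the stricter filter and 1098 over all probes, which test other numbers of features, and 473 to 805 with 1 array left out. Its share above 0, 58.2%, was 48.2% after cyclic loess, 63.4% after median centring and 51.1% without the 2 least correlated arrays. It was 51.7% without replicate 1 of either tumor-bearing group. Reversed order was seen in 33 genes with no filter, 13 with the stricter filter and 24 to 61 with 1 array left out, and the same order in 159, 65 and 113 to 211, since fewer arrays separate more easily. The labels do not say that replicate numbers pair the mice. With the replicate block 0 genes were called and 688 were at an unadjusted p under 0.05.

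Medians of lists that moved beyond the replicate spread, the cause not being tested, were as follows. The stricter filter, which leaves fewer members, gave 0.23 for conventional dendritic cell, -0.74 for MHC class II and 0.17 for p53 target genes, and no filter gave 0.073 for megakaryocyte, -0.18 for NF-kappaB and -0.10 for chemokine receptor genes. Under the replicate block the B cell progenitor, stem cell, type I interferon and interferon gamma medians were -0.18, -0.18, 0.30 and 0.32. Array weights gave -0.21 for group 2 innate lymphoid cell and -0.25 for NF-kappaB genes, and the mean of probes 0.16 for mesenchymal stromal genes. Without the 2 least correlated arrays the stem cell median was -0.13, mesenchymal stromal 0.16, oxidative phosphorylation 0.10, ribosome biogenesis -0.059, sterol synthesis 0.17 and integrins 0.12. With each array's mean correlation fitted as covariate, mesenchymal stromal was 0.22 and chemokine receptors -0.12.

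With 1 array left out, medians ranged from -0.44 to -0.26 for NF-kappaB, -0.14 to 0.15 for chemokine receptors, -0.20 to 0.087 for glycolysis, -0.26 to 0.078 for group 2 innate lymphoid cells, -0.25 to 0.071 for heat shock, -0.038 to 0.084 for integrins, -0.48 to 0.019 for mature B cells and -0.13 to 0.074 for megakaryocytes. They ranged from -0.12 to 0.20 for mesenchymal stromal cells, -0.46 to -0.088 for natural killer cells, -0.11 to 0.11 for stem cells, 0.14 to 0.37 for sterol synthesis, -0.016 to 0.13 for secreted factors and -0.045 to 0.25 for type I interferon genes.

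The 7 named genes that changed sign had a difference near 0. With 1 array left out these ranged from -0.47 to 0.71 for Eef1e1, -0.23 to 0.33 for Lpcat1, -0.61 to 0.10 for Mrpl9, -0.15 to 0.43 for Rps6ka5, -0.68 to 0.22 for Zhx2, -0.19 to 0.24 for Lgmn and -0.50 to 0.077 for Kit. Eef1e1 was also at -0.16 with array weights, -0.52 without the 2 least correlated arrays and -0.23 with the covariate. Lpcat1 was at -0.040 with array weights and -0.29 with the replicate block, Zhx2 at 0.12 without the 2 arrays, and Lgmn at -0.0368 after cyclic loess and -0.10 with the replicate block.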
